A study of Mus musculus with 12 samples.

Results

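The AP-1 and Maf transcription factors described here are 10 listed genes out of the 18193 genes on the arrays: the FOS family genes Fos, Fosb, Fosl1 and Fosl2, the JUN family genes Jun, Junb and Jund, the BATF family gene Batf, and the small Maf genes Maff and Mafk. The genes were chosen by name, and where a gene had several probe sets the one with the highest average signal stood for it. They were measured in follicular B cells that were sorted from mouse spleen, cultured, and profiled on Affymetrix mouse 3' expression arrays. There were 6 groups of 2 arrays: IkL/L and WT cells, each cultured for 3 h without stimulus, for 3 h with anti-IgM or for 12 h with anti-IgM. IkL/L mice carry hypomorphic alleles of Ikzf1, the gene of the lymphoid transcription factor Ikaros, and WT mice carry the normal gene. All mice were 6 weeks old and on a C57Bl/6 background, and the sort gate was B220+CD23hiCD21lo with a purity above 98%. The stimulus of the 4 stimulated groups was goat anti-mouse IgM F(ab')2 at 10 µg/ml, which cross-links the B cell receptor. Because unstimulated cells were kept for 3 h, cells at 12 h had also been in culture for longer. The series reports 2 independent experiments and the labels do not say how many mice stood behind a sample, so the p-values cover the spread between samples. For IkL/L samples that spread may be technical, while the WT replicates came from different mice by their sex-linked genes, given below.

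AP-1 is a family of dimers of basic leucine zipper (bZIP) proteins, in which a FOS, JUN, BATF or ATF protein pairs with a partner and binds DNA at short palindromic sites. FOS proteins need a partner such as a JUN protein to bind DNA, JUN proteins can also pair with each other, and BATF, which has no activation domain of its own, binds with JUN proteins and IRF4 or IRF8 in lymphocytes. In B cells, cross-linking of the receptor activates MAP kinases, which act on factors already bound at the Fos promoter, and Fos is therefore known as an immediate early gene. The small Maf proteins also lack an activation domain and bind antioxidant and Maf sites as dimers with CNC proteins such as NRF2, BACH1 and BACH2. BACH2 with a small Maf is known to hold back the plasma cell programme in mature B cells.

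RefSeq promoter windows were available for 9 of the 10 genes, 11 windows in all, and the 250 bases before each start were searched on build GRCm38.p6. The windows of Fos, Batf, Maff and Jun are printed because they hold a site of the kind that CREB, ATF or JUN proteins are known to bind. Capitals mark the match to TGACGT, TGACGTCA or TGACATCA, and each sequence runs 5′ to 3′ on the strand of its gene.
Fos, chr12:85473640-85473889, plus strand: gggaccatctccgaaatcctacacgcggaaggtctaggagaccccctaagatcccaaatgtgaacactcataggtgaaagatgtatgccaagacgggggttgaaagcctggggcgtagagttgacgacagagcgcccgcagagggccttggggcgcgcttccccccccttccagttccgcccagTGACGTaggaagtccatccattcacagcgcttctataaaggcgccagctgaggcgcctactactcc
Batf, chr12:85686470-85686719, plus strand: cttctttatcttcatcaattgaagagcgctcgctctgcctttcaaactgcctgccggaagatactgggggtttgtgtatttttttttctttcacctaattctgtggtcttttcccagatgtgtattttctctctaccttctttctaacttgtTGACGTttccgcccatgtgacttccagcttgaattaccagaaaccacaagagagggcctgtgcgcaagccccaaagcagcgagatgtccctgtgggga
Maff, chr15:79347270-79347519, plus strand: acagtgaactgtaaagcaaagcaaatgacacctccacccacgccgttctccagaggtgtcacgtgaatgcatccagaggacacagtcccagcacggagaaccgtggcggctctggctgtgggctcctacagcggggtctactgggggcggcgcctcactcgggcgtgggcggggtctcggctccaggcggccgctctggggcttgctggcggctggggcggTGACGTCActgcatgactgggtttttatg
Jun, chr4:95052223-95052472, minus strand: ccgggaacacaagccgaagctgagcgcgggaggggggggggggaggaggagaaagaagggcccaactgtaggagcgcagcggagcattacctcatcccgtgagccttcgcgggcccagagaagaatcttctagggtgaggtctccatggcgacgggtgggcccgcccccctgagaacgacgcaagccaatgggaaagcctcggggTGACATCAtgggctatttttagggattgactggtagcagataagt
The short site TGACGT lay 66 bases before the start in Fos and 98 bases before it in Batf. The palindrome TGACGTCA, which holds TGACGT on both strands, lay 29 bases before the start in this window of Maff, 1 of 3 listed for the gene. The variant TGACATCA lay 45 bases before the start in Jun and also 45 bases before the start in another Maff window. The consensus AP-1 site TGANTCA was in 0 of the 11 windows. Searched on both strands of all 32851 windows of this length, TGACGT was found in 6.47%, TGACGTCA in 1.55%, TGACATCA in 2.93% and TGANTCA in 6.75%. These matches describe letters in the windows, and a window without a match says nothing about binding.

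The arrays were alike in overall level, with log2 medians of 3.12 to 3.21, and the correlation across genes of the 2 arrays in each group was 0.99 to 0.994. A signal floor was set 1 log2 unit above the highest array median, at 4.21. All 7 measured B cell markers lay above it on every array, and the 6 T cell and 3 NK cell markers lay under it on every array. Of 7 myeloid markers 3 lay under the floor on every array, while S100a8 and S100a9 read higher in replicate 2 than in replicate 1 of each group. Xist read 10.0 to 10.7 on the 3 WT replicate 1 arrays and lay under the floor on all others, while Y-linked Eif2s3y read 2.41 to 2.83 on those 3 arrays and 8.30 to 9.24 on the other 9. WT replicate 1 thus had the female pattern, and WT replicate 2 and all 6 IkL/L arrays the male one, so the WT replicates came from different mice. Genotype differences between replicate 1 arrays also compare male with female cells, and sex and genotype cannot be told apart there. Ikzf1 read 10.00 and 9.94 in unstimulated, 8.58 and 8.08 in 3 h and 9.59 and 8.98 in 12 h IkL/L cells, against 9.85 and 9.83, 8.93 and 9.10, and 10.33 and 10.00 in WT cells. The labels do not say where that probe set lies relative to the changed part of the alleles, so it does not check the genotype. Same-numbered arrays of a genotype deviated together from their group means, with r between 0.354 and 0.619 in 6 of 6 pairs, so a fit with a term for replicate within genotype (the paired fit) was run beside the main fit of 6 group means. Across genotypes the paired fit leaves out the spread between replicates of a genotype, so its p-values there are too small. In bulk samples a lower level in every cell and fewer cells with a transcript cannot be told apart.

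After 3 h of anti-IgM the genes split into a group that rose, a group that did not pass the test and, on the chosen probe sets, 1 gene that fell. The other Jun probe set fell as well, to near or under the signal floor. Fosl2, Batf, Maff and Mafk rose in both genotypes, Fosl1 passed in IkL/L cells, and Jund fell in both. The classical immediate early members Fos and Junb did not pass at 3 h in the main fit, and Jun did not rise. In the paired fit Fos passed at 3 h in both genotypes and Junb in WT cells. No sample was taken before 3 h of stimulus, so an earlier rise would not be seen. By 12 h Batf stayed above its unstimulated level in both genotypes, while Fosl2, Maff and Mafk were again far below their 3 h level and Fos was below its unstimulated level. The following paragraphs give all 12 arrays for the members, as log2 RMA signals with replicate 1 first.

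**Figure D1:**
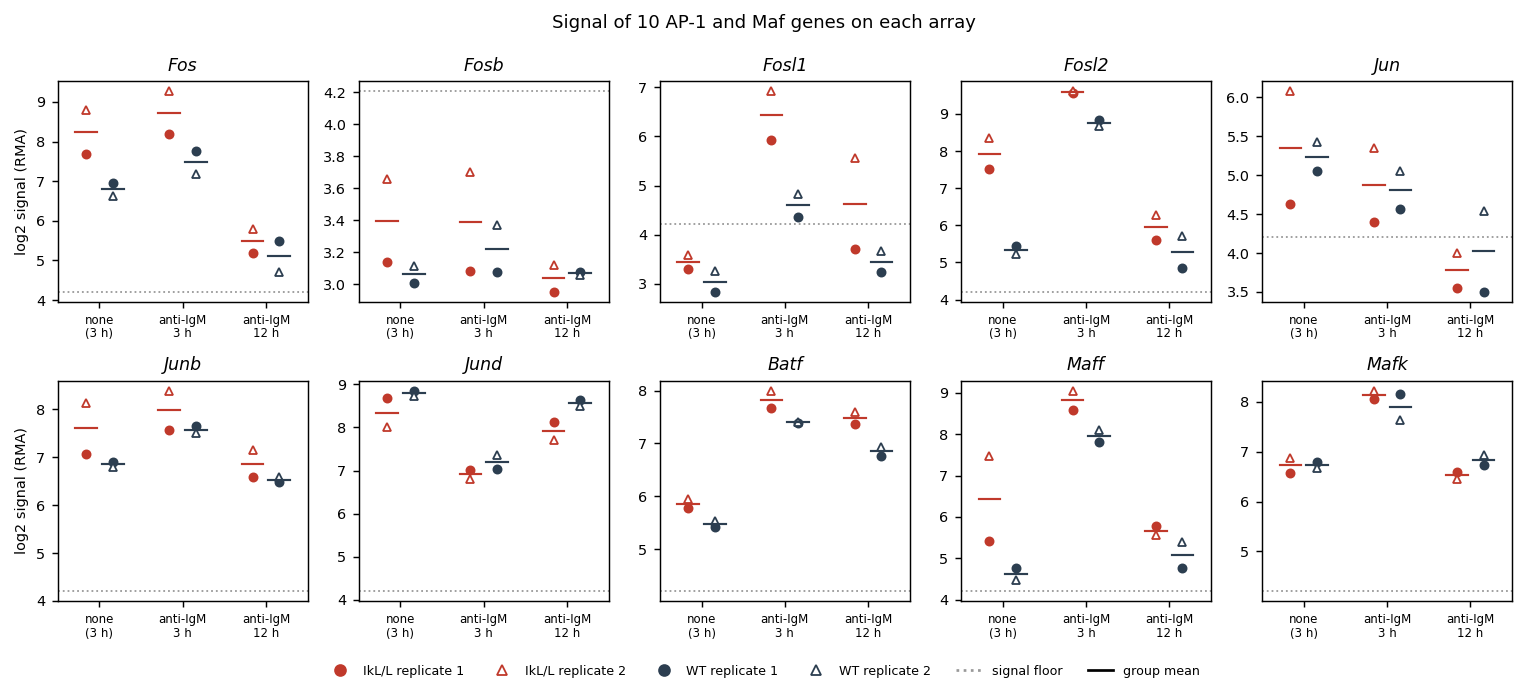
Log2 RMA signal (vertical axis, scaled per gene) of the 10 genes on each of the 12 arrays, by condition, with IkL/L arrays in red left of WT arrays in dark blue. Bars are group means and the dotted line is the signal floor at 4.21; Fosl2 peaks at 9.59 (IkL/L) and 8.76 (WT) at 3 h, and unstimulated IkL/L replicate 2 stands above replicate 1 for Fos, Junb and Maff.

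Fos, the prototype partner of JUN proteins, was already high without stimulus and was lowest at 12 h. In IkL/L cells it read 7.68 and 8.80 unstimulated, 8.20 and 9.27 at 3 h and 5.19 and 5.79 at 12 h. In WT cells it read 6.96 and 6.64 unstimulated, 7.77 and 7.18 at 3 h and 5.49 and 4.72 at 12 h. All 4 arrays at 12 h lay below the other 8, and replicate 2 was the higher array in every IkL/L condition. At 3 h the difference from unstimulated cells was 0.50 in IkL/L cells (SE 0.45, adjusted p = 0.57 in limma), where the arrays overlapped, and 0.68 in WT cells (SE 0.45, adjusted p = 0.414). The paired fit gave adjusted p = 0.0428 for the IkL/L and 0.00905 for the WT difference. At 12 h Fos fell 6.71-fold in IkL/L cells (log2 -2.75, SE 0.45, adjusted p = 0.00198) and 3.23-fold in WT cells (log2 -1.69, SE 0.45, adjusted p = 0.0231), both against unstimulated cells. The WT call was lost without unstimulated replicate 1 (adjusted p = 0.131), unstimulated replicate 2 (0.0712) or 12 h replicate 2 (0.158), and without either WT replicate in all conditions (0.136 for replicate 1 and 0.275 for replicate 2). Between 3 h and 12 h Fos fell 9.46-fold in IkL/L cells (log2 -3.24, adjusted p = 0.000951) and 5.18-fold in WT cells (log2 -2.37, adjusted p = 0.0076). This WT call was lost without 3 h replicate 1 (adjusted p = 0.0652), 12 h replicate 2 (0.0619), WT replicate 1 in all conditions (0.108) or WT replicate 2 in all conditions (0.146).

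Fosl2, which encodes the FOS-related antigen FRA-2, was the FOS gene with the largest swing between group means. It read 7.51 and 8.35 unstimulated, 9.57 and 9.61 at 3 h and 5.62 and 6.29 at 12 h in IkL/L cells. In WT cells the signals were 5.44 and 5.24 unstimulated, 8.83 and 8.69 at 3 h and 4.86 and 5.71 at 12 h. The 4 arrays at 3 h were the highest of all 12, and both unstimulated IkL/L arrays lay above every unstimulated and 12 h WT array. Fosl2 rose 3.16-fold at 3 h in IkL/L cells (log2 1.66, SE 0.33, adjusted p = 0.00458), a call lost without IkL/L replicate 1 in all conditions (log2 1.26, adjusted p = 0.0888). In WT cells it rose 10.7-fold (log2 3.42, SE 0.33, adjusted p = 6.93e-05). By 12 h it had fallen 12.4-fold from its 3 h level in IkL/L cells (log2 -3.63, adjusted p = 9.85e-05) and 11.1-fold in WT cells (log2 -3.47, adjusted p = 0.000238). At 12 h it was 3.93-fold below its unstimulated level in IkL/L cells (log2 -1.97, adjusted p = 0.00222) and near it in WT cells (log2 -0.05, 95% interval -0.78 to 0.68, adjusted p = 0.957). The other Fosl2 probe set lay close to the floor on all 12 arrays, between 3.82 and 4.44, and passed in none of these comparisons.

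Fosl1, which encodes FRA-1, was near background in unstimulated cells of both genotypes. The IkL/L arrays read 3.30 and 3.59 unstimulated, 5.94 and 6.92 at 3 h and 3.70 and 5.56 at 12 h. The WT arrays read 2.83 and 3.25 unstimulated, 4.36 and 4.83 at 3 h and 3.24 and 3.66 at 12 h. Of the 12 arrays 7 lay under the floor, and both IkL/L arrays at 3 h lay above both WT arrays at 3 h. In IkL/L cells Fosl1 was at least 4.66-fold higher at 3 h than without stimulus, with adjusted p = 0.00209 (log2 2.99, SE 0.51). The other Fosl1 probe set lay under the floor on all 12 arrays, between 2.79 and 3.46, and passed in no comparison (log2 0.27, adjusted p = 0.391 at 3 h in IkL/L cells). On the chosen probe set in WT cells the 3 h difference was 1.55 (SE 0.51, adjusted p = 0.0629), with adjusted p = 0.00166 in the paired fit. Of 23 alternative settings 8 passed for the WT difference, with adjusted p between 0.00166 and 0.385. Fosl1 then fell between 3 h and 12 h at least 2.92-fold in IkL/L cells (log2 -1.80, SE 0.51, adjusted p = 0.04). That call passed in 9 of 23 alternatives (adjusted p between 0.00101 and 0.266); among others it was lost without 3 h replicate 2 (0.266) or 12 h replicate 1 (0.238) of IkL/L cells and without either WT replicate in all conditions (0.101 each). In WT cells the difference from 3 h to 12 h was -1.15 (adjusted p = 0.233, and 0.0156 in the paired fit), and in IkL/L cells 12 h against unstimulated gave 1.19 (adjusted p = 0.168, and 0.00912 in the paired fit). Fosb lay under the floor on all 12 arrays, between 2.95 and 3.70, so no level or fold is given for it.

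Among the JUN genes, Jun did not rise at either time. Jun, the partner that most FOS proteins dimerize with, read 4.63 and 6.07 unstimulated, 4.40 and 5.35 at 3 h and 3.55 and 4.0 at 12 h in IkL/L cells. It read 5.05 and 5.42 unstimulated, 4.56 and 5.05 at 3 h and 3.50 and 4.54 at 12 h in WT cells. The replicates of a group lay up to 1.44 apart, and the groups at 3 h overlapped between genotypes. At 3 h the difference was -0.47 in IkL/L cells (SE 0.49, adjusted p = 0.641) and -0.43 in WT cells (SE 0.49, adjusted p = 0.698), and 0 of 23 alternatives passed for either. At 12 h it was -1.57 in IkL/L cells (adjusted p = 0.0535, and 0.000552 in the paired fit) and -1.22 in WT cells (adjusted p = 0.133, and 0.00236 in the paired fit). Between 3 h and 12 h the paired fit gave adjusted p = 0.0054 in IkL/L cells (log2 -1.10, adjusted p = 0.196 in the main fit) and 0.0369 in WT cells (log2 -0.78, adjusted p = 0.44 in the main fit). The other Jun probe set read 4.94 and 4.76 unstimulated, 4.0 and 3.97 at 3 h and 3.86 and 4.15 at 12 h in IkL/L cells, against 4.63 and 4.82, 3.98 and 4.26, and 3.90 and 3.75 in WT cells. It fell at 3 h in IkL/L cells (log2 -0.87, adjusted p = 0.00245) and in WT cells (log2 -0.60, adjusted p = 0.0184), and at 12 h as well (log2 -0.85 in IkL/L and -0.90 in WT cells). All its stimulated arrays except WT replicate 2 at 3 h lay under the floor, so the size of this fall is uncertain.

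Junb, a JUN protein that is also a close partner of BATF, passed in no comparison of the main fit. In IkL/L cells it read 7.07 and 8.13 unstimulated, 7.58 and 8.39 at 3 h and 6.59 and 7.14 at 12 h. WT cells gave 6.91 and 6.80 unstimulated, 7.64 and 7.49 at 3 h and 6.48 and 6.59 at 12 h. The WT arrays of the 3 conditions did not overlap, while the unstimulated IkL/L arrays overlapped with those at 3 h and with those at 12 h. The 3 h difference was 0.38 in IkL/L cells (SE 0.34, adjusted p = 0.565) and 0.72 in WT cells (SE 0.34, adjusted p = 0.215, and 0.00345 in the paired fit). Against 3 h, the 12 h difference was -1.11 in IkL/L cells (adjusted p = 0.0532, and 0.000347 in the paired fit) and -1.04 in WT cells (adjusted p = 0.089, and 0.000836 in the paired fit). Against unstimulated cells, 12 h gave -0.73 in IkL/L cells (adjusted p = 0.207, and 0.00348 in the paired fit) and -0.32 in WT cells (adjusted p = 0.656).

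Jund, the JUN gene known for a steady level in resting cells, was the only member whose chosen probe set fell at 3 h. It read 8.67 and 8.0 unstimulated, 7.01 and 6.81 at 3 h and 8.12 and 7.70 at 12 h in IkL/L cells. It read 8.85 and 8.73 unstimulated, 7.05 and 7.35 at 3 h and 8.63 and 8.49 at 12 h in WT cells. All 4 arrays at 3 h lay below the other 8. Jund fell 2.69-fold at 3 h in IkL/L cells (log2 -1.43, SE 0.22, adjusted p = 0.00116) and 3.01-fold in WT cells (log2 -1.59, SE 0.22, adjusted p = 0.000612). The WT call was lost with WT replicate 1 left out throughout (log2 -1.38, adjusted p = 0.0588). From 3 h to 12 h it rose by 1.00 in IkL/L cells (adjusted p = 0.0125) and by 1.36 in WT cells (adjusted p = 0.0037). The IkL/L rise was lost without 3 h replicate 2 (adjusted p = 0.0919), 12 h replicate 1 (0.0993) or IkL/L replicate 1 in all conditions (0.0536), and after scaling to housekeeping genes (0.0676). The WT rise was lost without WT replicate 1 (0.159) or replicate 2 (0.0766) in all conditions. Levels at 12 h differed from unstimulated ones by -0.42 in IkL/L and -0.23 in WT cells, without passing (adjusted p = 0.276 and 0.613). The other Jund probe set lay under the floor on every array.

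Batf, whose product is needed for class switch recombination in mice, rose early and stayed up. IkL/L arrays read 5.77 and 5.95 unstimulated, 7.66 and 8.0 at 3 h and 7.37 and 7.59 at 12 h. WT arrays read 5.42 and 5.54 unstimulated, 7.38 and 7.41 at 3 h and 6.76 and 6.94 at 12 h. All 8 stimulated arrays lay above all 4 unstimulated ones, and the replicates of a group were no more than 0.34 apart. Batf rose 3.92-fold at 3 h in IkL/L cells (log2 1.97, SE 0.14, adjusted p = 1.6e-05) and 3.77-fold in WT cells (log2 1.91, SE 0.14, adjusted p = 2.1e-05). At 12 h it was 3.07-fold above unstimulated in IkL/L cells (log2 1.62, adjusted p = 6.77e-05) and 2.58-fold above in WT cells (log2 1.37, adjusted p = 0.000139). All 4 of these calls passed in 23 of 23 alternatives. From 3 h to 12 h the difference was -0.35 in IkL/L cells (adjusted p = 0.157) and -0.54 in WT cells (adjusted p = 0.0386). The WT decrease passed in 13 of 23 alternatives (adjusted p between 0.00784 and 0.396) and was lost without any 1 of the 6 WT arrays (0.0583 to 0.176), without either WT replicate throughout (0.396 and 0.265), with an intensity trend (0.111) and after scaling to housekeeping genes (0.0605).

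Both small Maf genes rose at 3 h and fell again by 12 h in both genotypes. Maff read 5.42 and 7.47 unstimulated, 8.58 and 9.06 at 3 h and 5.77 and 5.56 at 12 h in IkL/L cells. It read 4.77 and 4.48 unstimulated, 7.81 and 8.11 at 3 h and 4.76 and 5.40 at 12 h in WT cells. The 4 arrays at 3 h were the highest, and the unstimulated IkL/L replicates lay 2.05 apart, the widest gap between replicates of any member. Maff rose 5.19-fold at 3 h in IkL/L cells (log2 2.38, SE 0.51, adjusted p = 0.00752), by 3.16 in replicate 1 and by 1.59 in replicate 2. It rose 10.1-fold in WT cells (log2 3.33, SE 0.51, adjusted p = 0.00108). The IkL/L call was lost without 3 h replicate 2 (adjusted p = 0.0644) and the WT call with WT replicate 2 left out throughout (adjusted p = 0.0663). Maff fell again between 3 h and 12 h, 8.87-fold in IkL/L cells (log2 -3.15, adjusted p = 0.00246) and 7.33-fold in WT cells (log2 -2.87, adjusted p = 0.00576). The WT decrease was lost without WT replicate 1 (0.152) or replicate 2 (0.125) in all conditions. At 12 h against unstimulated the difference was -0.77 in IkL/L cells (adjusted p = 0.426), and -1.80 with adjusted p = 0.00455 without unstimulated replicate 1, while it was 0.46 in WT cells (adjusted p = 0.675).

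Mafk, another partner of BACH and NRF proteins, changed less but with less spread. It read 6.57 and 6.88 unstimulated, 8.05 and 8.23 at 3 h and 6.60 and 6.45 at 12 h in IkL/L cells. It read 6.80 and 6.67 unstimulated, 8.16 and 7.63 at 3 h and 6.74 and 6.94 at 12 h in WT cells. The 4 arrays at 3 h lay above all others, and the unstimulated and 12 h arrays overlapped in both genotypes. Mafk rose 2.67-fold at 3 h in IkL/L cells (log2 1.41, SE 0.18, adjusted p = 0.000382) and 2.23-fold in WT cells (log2 1.16, SE 0.18, adjusted p = 0.00138). From 3 h to 12 h it fell 3.06-fold in IkL/L cells (log2 -1.61, adjusted p = 0.000358) and 2.08-fold in WT cells (log2 -1.06, adjusted p = 0.00518), the WT decrease being lost with WT replicate 1 left out throughout (log2 -0.69, adjusted p = 0.171).

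**Figure D2:**
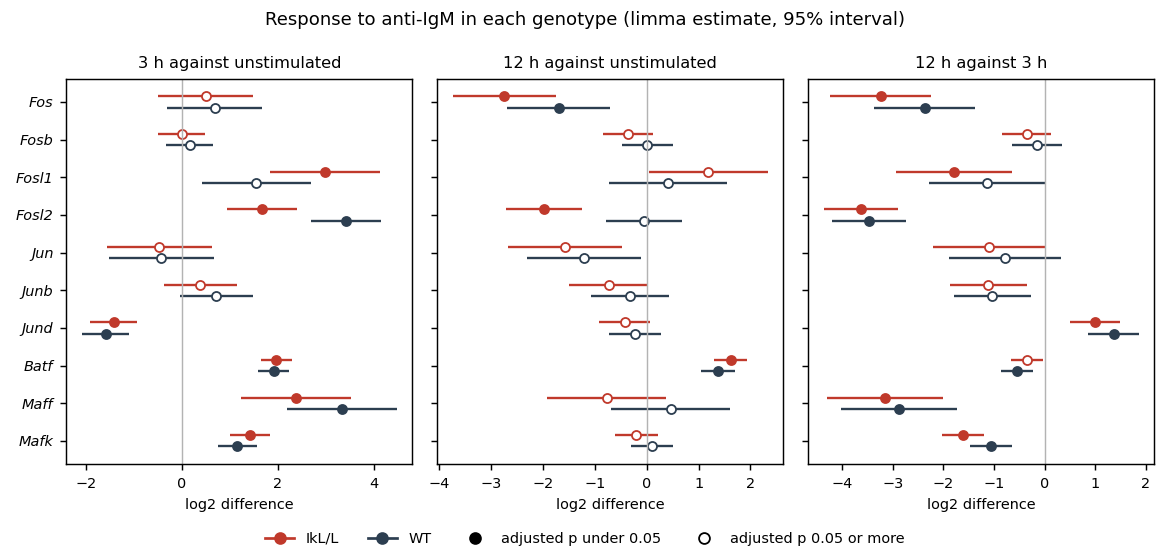
Log2 difference between conditions (horizontal axis) for each gene (vertical axis), with 95% intervals from limma, IkL/L in red above WT in dark blue; filled points have adjusted p under 0.05. Fosl2 is at 1.66 (IkL/L) and 3.42 (WT) at 3 h, Batf is filled at both times, and 5 genes in each genotype are filled on the left in the comparison of 12 h with 3 h.

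Counted by comparison, 6 of the 10 genes were called at 3 h in IkL/L cells (5 higher, 1 lower), where 20.4% of all genes were called and 9.82% were called higher. In WT cells 5 were called (4 higher, 1 lower), where 19.4% of all genes were called and 9.15% higher. Of the members 6 were called between 3 h and 12 h in IkL/L cells (1 higher, 5 lower), against 15.5% of all genes called and 6.42% called lower, and 6 in WT cells (1 higher, 5 lower), against 10.8% called and 4.33% lower. Between unstimulated and 12 h cells 3 were called in IkL/L cells (1 higher, 2 lower; 17.6% of all genes) and 2 in WT cells (1 higher, 1 lower; 18.8% of all genes), which for WT is close to the share over all genes. The median difference over the 10 genes was 0.96 in IkL/L and 0.94 in WT cells at 3 h, against -0.03 and 0.02 over all genes. In the paired fit the count at 12 h against unstimulated was 6 in IkL/L cells, and that at 3 h in WT cells was 8. The shares over all genes given above are from the main fit and do not apply to these counts. No share over all genes is given for the paired fit in these comparisons. Whether these paired counts exceed the share over all genes therefore cannot be told.

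The comparison of genotypes asked how these factors differ between cells with hypomorphic and normal Ikzf1. In unstimulated cells Fosl2 was 6.03-fold higher in IkL/L than in WT cells (log2 2.59, SE 0.33, adjusted p = 0.00666), and this was the only member called. It was higher by 2.07 between the replicate 1 arrays and by 3.11 between the replicate 2 arrays, of which the replicate 1 pair also differs in sex. The call was lost without unstimulated WT replicate 2 (log2 2.49, adjusted p = 0.0928), without WT replicate 1 (2.69, 0.05) or WT replicate 2 (2.49, 0.0964) in all conditions, and with IkL/L replicate 2 left out throughout (2.17, 0.108). Across 23 alternatives it passed in 19, with adjusted p between 0.000456 and 0.108. Over all genes 1.13% were called in unstimulated cells, and 0.594% were called higher in IkL/L cells. Among the other members above the floor on all arrays the log2 difference was 1.82 for Maff (SE 0.51, adjusted p = 0.169) and 1.44 for Fos (SE 0.45, adjusted p = 0.213). It was 0.75 for Junb (adjusted p = 0.472), 0.38 for Batf (adjusted p = 0.348), -0.01 for Mafk and -0.46 for Jund (adjusted p = 0.518). None of these passed. The paired fit, which is among the 23 alternatives, gave adjusted p = 0.0404 for Maff, 0.00126 for Fos and 0.0197 for Junb. These values are too small across genotypes, as said above. The Maff difference was 0.65 between the replicate 1 arrays and 2.99 between the replicate 2 arrays, and without unstimulated IkL/L replicate 1 it passed (log2 2.84, adjusted p = 0.00797).

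Unstimulated IkL/L replicate 2 read higher than replicate 1 for several stress and early genes beside the members. Hspa1a, an inducible heat shock gene, read 6.22 and 8.23 on the IkL/L and 6.99 and 7.09 on the WT arrays, Hspa1b 7.28 and 9.22 against 7.86 and 7.62, and Egr1, an immediate early gene, 8.58 and 10.02 against 8.91 and 8.99. The summed myeloid markers ranged from 6.60 to 7.98 on the unstimulated IkL/L arrays and from 6.16 to 7.05 on the WT arrays, with S100a8 at 5.10 and 6.80 against 3.80 and 5.59. None of the 7 measured myeloid, 6 T cell or 3 NK cell markers was called in unstimulated cells. Of 5 marginal zone B cell markers 1 was called higher in IkL/L cells in each condition: Cd9 read 7.81 and 7.69 in unstimulated IkL/L cells, against 5.56 and 5.84 in unstimulated WT cells. Summed, that list ranged from 10.82 to 10.90 in unstimulated IkL/L and from 10.59 to 10.87 in unstimulated WT cells. Of 4 plasma cell markers 1 was called lower in unstimulated IkL/L cells: Sdc1 read 3.43 and 3.13, under the floor, against 6.22 and 6.61 in WT cells. The summed plasma cell list ranged from 10.59 to 11.34 in unstimulated IkL/L and from 10.58 to 10.65 in unstimulated WT cells. The 7 B cell markers summed to 13.98 to 14.08 in unstimulated IkL/L and to 14.29 to 14.39 in unstimulated WT cells, and in the average over conditions 2 of them were called lower in IkL/L cells (median of the list -0.52). The part of these markers and genes in the genotype differences was not tested.

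At 3 h 0 of the 10 genes were called between genotypes in limma, with 1.7% of all genes called. Fosl1 was 3.56-fold higher in IkL/L cells (log2 1.83, SE 0.51, adjusted p = 0.135) and Fos 2.39-fold higher (log2 1.26, SE 0.45, adjusted p = 0.251). The paired fit, with p-values that are too small across genotypes, gave adjusted p = 0.0048 for Fosl1 and 0.00209 for Fos. Fosl1 also passed without either 12 h IkL/L array (0.0279 each) and with IkL/L replicate 1 left out throughout (0.0238), with adjusted p between 0.0048 and 0.658 over 23 alternatives. At 12 h 0 were called in limma, with 0.616% of all genes called. The Batf difference of 0.63 (adjusted p = 0.117) gave adjusted p = 0.0206 in the paired fit, again too small across genotypes. The Fosl1 difference at 12 h, 1.18 (adjusted p = 0.485), passed without 12 h IkL/L replicate 1 (log2 2.11, adjusted p = 0.0489) and with IkL/L replicate 1 left out throughout (adjusted p = 0.0447).

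Averaged over the 3 conditions, 3 of the 10 genes were higher in IkL/L cells and 0 were lower, where 6.08% of all genes were called and 3.41% were called higher. Fosl2 was higher by 1.36 (SE 0.19, adjusted p = 0.00275), Batf by 0.48 (SE 0.08, adjusted p = 0.00895) and Fos by 1.03 (SE 0.26, adjusted p = 0.0447). By condition the Fosl2 difference was 2.59 in unstimulated cells, 0.83 at 3 h and 0.67 at 12 h, and only the unstimulated one was called. The Fosl2 average was lost without IkL/L replicate 2 in all conditions (log2 1.11, adjusted p = 0.0522). The Batf average was lost without WT replicate 1 (0.0944), WT replicate 2 (0.092) or IkL/L replicate 2 (0.135) in all conditions and with housekeeping scaling (0.0889). The Fos average passed in 11 of 23 alternatives, with adjusted p between 0.000106 and 0.4. It was lost without either unstimulated WT array, either 3 h WT array, 12 h WT replicate 2 or any of the 3 IkL/L replicate 2 arrays left out singly (adjusted p between 0.0542 and 0.126), and after median centring (0.0527). Without all 3 arrays of a replicate it was 0.57 for IkL/L replicate 2 (adjusted p = 0.328), 1.31 for WT replicate 1 (0.0738) and 0.75 for WT replicate 2 (0.4). Fosl1 (1.14, adjusted p = 0.0525), Maff (1.09, adjusted p = 0.061), Junb (0.50, adjusted p = 0.193) and Jund (-0.47, adjusted p = 0.0648) did not pass. In the paired fit, which is among the 23 alternatives, they gave adjusted p = 0.00131, 0.0144, 0.00322 and 0.00707. Those values are too small across genotypes.

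**Figure D3:**
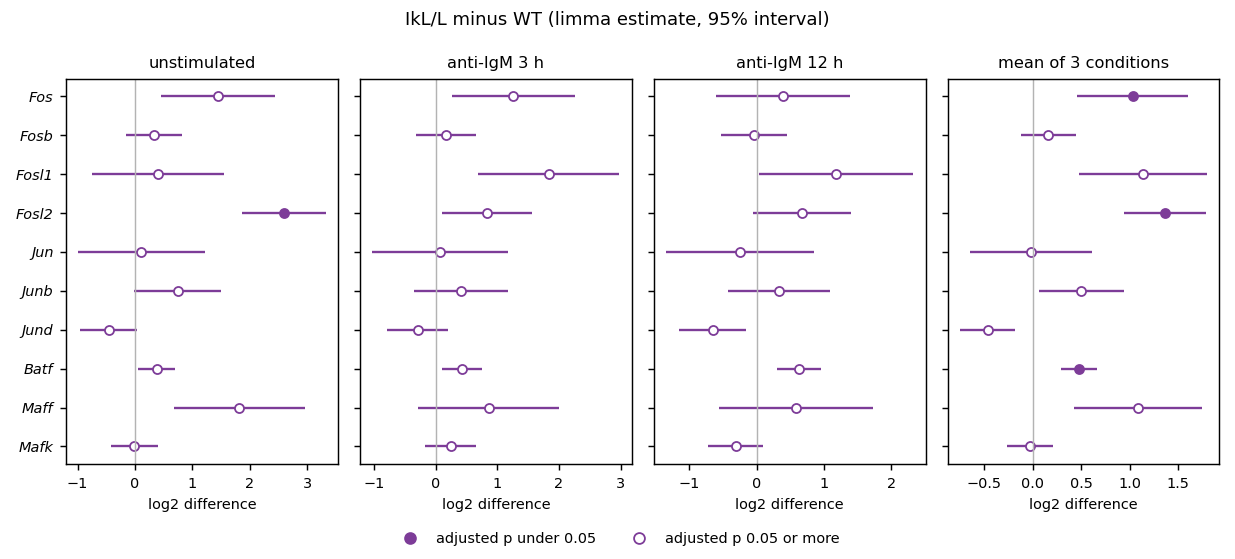
Log2 difference IkL/L minus WT (horizontal axis) for each gene (vertical axis) in each condition and averaged over the 3 conditions, with 95% intervals from limma; filled points have adjusted p under 0.05. Fosl2 at 2.59 is the only filled point in unstimulated cells, no point is filled at 3 h or 12 h, and Fos, Fosl2 and Batf are filled in the average.

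Whether the response itself differed between genotypes was tested as an interaction, and 0 of the 10 genes passed in limma at 3 h (0.0385% of all genes called) or at 12 h (0.022% called). The Fosl2 response at 3 h was smaller by 1.76 on the log2 scale in IkL/L than in WT cells (log2 -1.76, 95% interval -2.79 to -0.73, adjusted p = 0.534), and that at 12 h was -1.92 (95% interval -2.95 to -0.89, adjusted p = 0.442). For Fosl1 the 3 h interaction was 1.43 (95% interval -0.19 to 3.05, adjusted p = 0.924). For Fosl2, 0 of 23 alternatives gave an adjusted p under 0.05 at either time.

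Ordered by group mean, IkL/L cells at 3 h stood highest for Fos, Fosl1, Fosl2, Junb, Batf, Maff and Mafk. Only for Fosl1 was the difference from the next group, IkL/L cells at 12 h, called in the main fit. The share of all genes that stand highest in this group is not given. For Fos the next group, unstimulated IkL/L cells (8.24 ± 0.79 against 8.73 ± 0.75 at 3 h, SD, n = 2 each), did not differ beyond the spread. Nor did it for Junb, with unstimulated IkL/L cells next (7.60 ± 0.75 against 7.98 ± 0.58, SD, n = 2 each). The same held for Mafk, with WT cells at 3 h next (7.89 ± 0.38 against 8.14 ± 0.12, SD, n = 2 each). For Fosl2 the order was IkL/L 3 h (9.59 ± 0.03), WT 3 h (8.76 ± 0.10), IkL/L unstimulated (7.93 ± 0.60), IkL/L 12 h (5.95 ± 0.48), WT unstimulated (5.34 ± 0.14) and WT 12 h (5.28 ± 0.60), of which the last 3 lie within their spread (SD, n = 2 each). Jund ran the other way, with WT unstimulated cells highest (8.79 ± 0.09) and IkL/L cells at 3 h lowest (6.91 ± 0.14, SD, n = 2 each). Neither was called against the group next to it in the order.

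Over the 12 arrays, which share their groups and replicates, the Pearson correlation describes how alike the courses of the members were. It was 0.951 between Fosl2 and Maff, 0.904 between Fos and Junb and -0.925 between Jund and Maff, while Fos and Batf gave 0.025. Among 4166 other genes whose group means span at least 1 log2 unit, Fos was most like Crem (r = 0.956), which encodes a cAMP-responsive bZIP factor, followed by Ier5 (0.950) and Tes (0.948). Fosl2 was most like Ankrd33b (0.975) and Grasp (0.969), and Fosl1 was most like Map2k3 (0.970), a p38 kinase kinase. Batf was most like Ccdc115 (0.994), Ampd2 (0.987) and Gars (0.985). Maff was most like Pea15a (0.984), Zbed5 (0.975) and Gadd45b (0.969), Mafk most like Rasa2 (0.970) and Jund most like Slc25a30 (0.960). The correlations are over 12 arrays in 6 groups and carry no test.

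Other bZIP factors can pair with the members. Of 21 measured, 4 rose and 1 fell at 3 h in IkL/L cells, and 5 rose and 2 fell in WT cells. Over all genes 20.4% were called at 3 h in IkL/L and 19.4% in WT cells, so the IkL/L share of this list lies close to that. The 3 h counts of the following lists are to be read against the same shares. Atf3, a stress-induced partner of JUN proteins, read 5.14 and 6.09 unstimulated, 7.27 and 8.49 at 3 h and 5.40 and 6.92 at 12 h in IkL/L cells, against 4.55 and 4.10, 7.30 and 6.60, and 5.45 and 5.97 in WT cells. It rose 4.81-fold at 3 h in IkL/L cells (log2 2.27, adjusted p = 0.013) and at least 5.93-fold in WT cells (log2 2.62, adjusted p = 0.0061). Mafg, the remaining small Maf gene, rose 3.46-fold in IkL/L cells (log2 1.79, adjusted p = 0.0038) and 3.14-fold in WT cells (log2 1.65, adjusted p = 0.0061). Bach1, a repressor that binds DNA with small Maf proteins, read 9.69 and 9.70 in IkL/L cells at 3 h, against 9.05 and 8.83 in WT cells at 3 h, and was 1.69-fold higher in IkL/L cells (log2 0.76, adjusted p = 0.0313). Bach2 fell at 12 h in IkL/L cells (log2 -1.11, adjusted p = 0.00205) and in WT cells (log2 -1.43, adjusted p = 0.000404), and averaged over conditions it was lower in IkL/L than in WT cells (log2 -0.53, adjusted p = 0.0161). Crem fell 7.50-fold at 12 h in IkL/L cells (log2 -2.91) and 6.03-fold in WT cells (log2 -2.59). From 3 h to 12 h 0 rose and 3 fell in IkL/L cells, and 0 rose and 5 fell in WT cells. Over all genes 15.5% were called between these times in IkL/L (6.42% lower) and 10.8% in WT cells (4.33% lower). The IkL/L share of this list called is thus close to that of all genes.

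**Figure D4:**
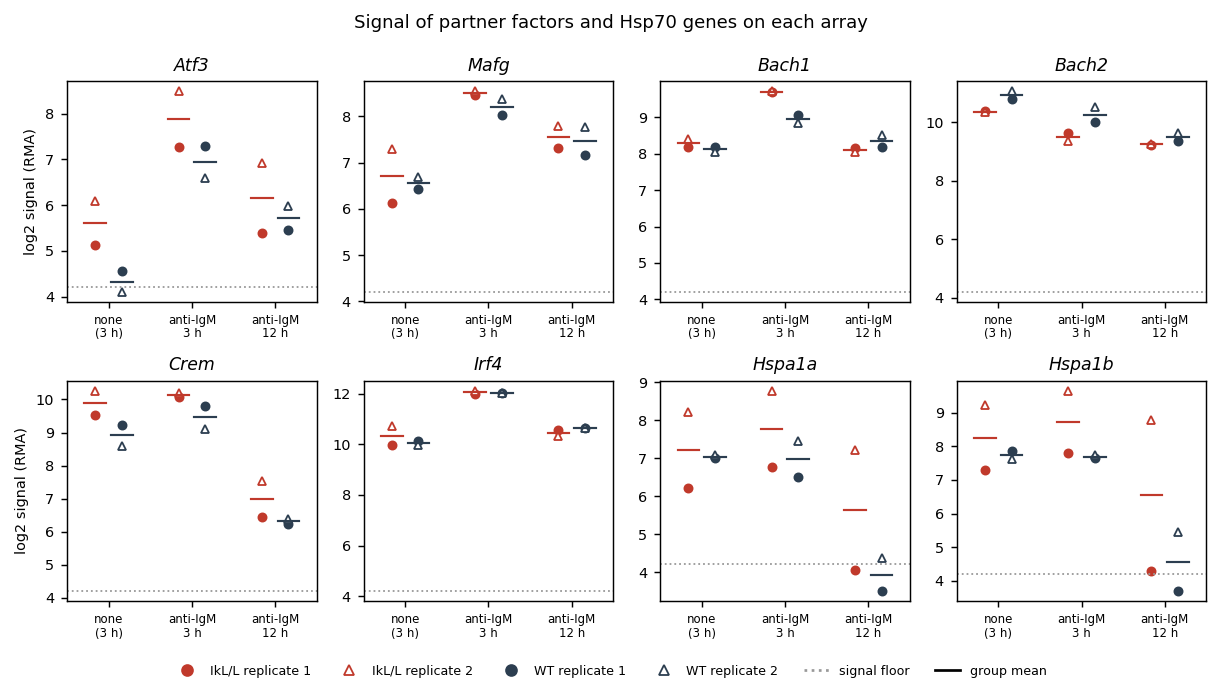
Log2 RMA signal (vertical axis, scaled per gene) of 6 partner factors and 2 Hsp70 genes on each of the 12 arrays, by condition, with IkL/L arrays in red left of WT arrays in dark blue; bars are group means and the dotted line is the signal floor. Atf3, Mafg and Irf4 peak at 3 h, Crem is lowest at 12 h, and Hspa1a and Hspa1b are higher in IkL/L replicate 2 than in IkL/L replicate 1 in every condition.

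Among 8 measured IRF partners and targets linked to BATF, 2 rose and 2 fell at 3 h in IkL/L cells, and 3 rose and 2 fell in WT cells. Irf4, the IRF that binds DNA with BATF and JUN proteins, rose 3.26-fold in IkL/L cells (log2 1.71) and 3.93-fold in WT cells (log2 1.97) and fell again by 12 h (log2 -1.61 and -1.38). Bcl6, a germinal centre repressor, fell 2.87-fold at 3 h in IkL/L cells (log2 -1.52) and 2.84-fold in WT cells. Prdm1, the plasma cell regulator that BACH2 represses, read 2.92 and 2.92 in IkL/L cells at 3 h, against 4.5 and 4.93 in WT cells at 3 h, so it was above the floor in the WT cells alone and at least 1.42-fold lower in IkL/L cells (log2 -1.79, adjusted p = 0.0048).

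Of 16 measured immediate early genes outside the family, 7 rose and 1 fell at 3 h in IkL/L cells, and 9 rose and 2 fell in WT cells. Nr4a3, a nuclear receptor gene, rose 5.16-fold in IkL/L cells (log2 2.37) and 7.85-fold in WT cells (log2 2.97). From 3 h to 12 h 1 rose and 10 fell in IkL/L cells, and 0 rose and 9 fell in WT cells. Between these times 15.5% of all genes were called in IkL/L and 10.8% in WT cells. Of 13 measured upstream kinases and serum response factors, 1 rose and 7 fell at 3 h in IkL/L cells, and 0 rose and 6 fell in WT cells. Mapk14, the p38 alpha kinase, fell 4.64-fold in IkL/L cells (log2 -2.21) and 3.58-fold in WT cells (log2 -1.84).

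Of 13 measured genes with well known AP-1 sites, 6 rose and 1 fell at 3 h in IkL/L cells, and 5 rose and 1 fell in WT cells. Il2ra, the IL-2 receptor alpha chain, rose at least 5.11-fold in IkL/L cells (log2 2.41) and 6.08-fold in WT cells (log2 2.60), and Vim, the filament protein vimentin, fell 6.37-fold in IkL/L cells (log2 -2.67) and 6.57-fold in WT cells (log2 -2.71). Odc1, the first enzyme of polyamine synthesis, read 11.34 and 11.33 in unstimulated IkL/L cells, against 10.37 and 10.26 in unstimulated WT cells, and was 2.04-fold higher in IkL/L cells (log2 1.03, adjusted p = 0.00252). Of 9 measured antioxidant genes with small Maf binding sites, 2 rose and 0 fell at 3 h in each genotype, close to the share over all genes, and 4 rose and 1 fell at 12 h in IkL/L cells, against 3 and 0 in WT cells, where 17.6% and 18.8% of all genes were called. Txnrd1, thioredoxin reductase, rose 9.78-fold at 12 h in IkL/L cells (log2 3.29) and 3.87-fold in WT cells (log2 1.95). Of 8 heat shock genes 4 rose and 0 fell at 3 h in IkL/L cells, and 5 rose and 0 fell in WT cells. Of the 7 measured B cell markers 5 fell at 3 h in each genotype, and their part in these results was not tested.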

How the data were processed

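Follicular B cells were profiled on 12 Affymetrix mouse 3' expression arrays, labelled in a 2-cycle assay from 100 ng of total RNA per the labels' protocols. The deposited values are log2 signals made with RMA (no version given), as the submitters' processing notes name it. Titles gave each array's group and replicate number. Of 45037 probe sets, 34945 carry 1 gene symbol, 932 have several and 9160 are unnamed here, and the probe set with the highest mean over the arrays stood for each of 18193 genes. All arrays were fitted with 6 group means in limma 3.58.1 under R 4.3.3 (6 residual and 3.95 prior degrees of freedom), and 12 comparisons were made. Adjusted p is Benjamini-Hochberg over all genes per comparison, called under 0.05. A fold is "at least" where any array on the low side reads under the floor, computed with the low side raised to the floor. All members are named, and of each other list the up to 3 largest called changes per comparison. Hspa1a, Hspa1b, Egr1, S100a8, S100a9, Cd9, Sdc1, Xbp1 and Jchain were chosen after their values were seen. The members and lists were chosen with earlier results of these data known. Pairing by replicate number was checked on the deviations from group means, which correlated over 0.1 in 6 of 6 pairs within a genotype and in 8 of 9 across genotypes. Alternatives were 2 replicate blocks, the mean or the other probe set of a gene, an intensity trend in the prior, leaving out 1 in 3 genes by lowest mean, median centring, scaling to 8 of 10 housekeeping genes, and leaving out each array or each replicate of a genotype. The fit was tested on simulated data with known changes. The number of arrays limits the precision.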

Additional observations from a re-analysis of the deposited data

How the results depend on the processing

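Of 120 values (10 genes in 12 comparisons), 32 passed. The block for replicate within genotype kept all 32 and added 23, and a block shared by both genotypes kept all 32 and added 13; changed values of the first stand beside the results, and it changed no other call. The mean of all probe sets, removal of the dimmest 1 in 3 genes, the intensity trend, median centring and housekeeping scaling kept 31, 32, 31, 31 and 29. Leaving out WT replicate 1 in all conditions kept 21. With housekeeping scaling the median over all genes moved by -0.45 for IkL/L cells at 12 h. The other probe set, present for 4 genes, kept 0 of their 13 calls (8 lost, 5 turned round) and added 4 for Jun. It turned the direction for Fosl2 at 3 h in IkL/L cells (-0.028) and in the average between genotypes (-0.10), and for Jund at 3 h (0.10 in IkL/L, 0.11 in WT) and from 3 h to 12 h in WT cells (-0.12); those probe sets lie near or under the floor. Members called with the block within genotype were 6 at 12 h in IkL/L, 8 at 3 h in WT, and 4 unstimulated, 2 at 3 h, 1 at 12 h and 7 in the average between genotypes. With the shared block they were 5 at 12 h in IkL/L, and 1 at 3 h, 1 at 12 h and 6 in the average between genotypes. For the counts at 12 h in IkL/L and at 3 h in WT cells, no share over all genes with these blocks is given. With the block within genotype, the counts between genotypes rest on p-values that are too small. Housekeeping scaling gave 8 at 12 h in IkL/L, and removal of dim genes and the trend gave 5 each in the average. Genes called over the whole array with the block within genotype were 3090 (WT, 12 h against 3 h), 717, 935, 467 and 2371 (IkL/L against WT unstimulated, at 3 h, at 12 h, average) and 27 and 26 (response differences at 3 h and 12 h). With the shared block the genotype counts were 400, 572, 187 and 1763, and the response counts 11 and 19. Housekeeping scaling gave 6781 at 12 h in IkL/L, 88, 133, 37 and 676 between genotypes, and 1 for the 3 h response. For the response differences the mean of all probe sets gave 2 at 3 h and 13 at 12 h, removal of dim genes 2 at 3 h, and the trend 7 at 12 h. Leaving out replicates, members called ranged 5 to 6, 3 to 7 and 4 to 7 in IkL/L (3 h, 12 h, 12 h against 3 h), 4 to 7, 1 to 2 and 1 to 8 in WT, and 0 to 3, 0 to 1, 0 to 1 and 0 to 7 between genotypes (unstimulated, 3 h, 12 h, average), and genes called ranged 1963 to 3800, 1381 to 3325, 1058 to 2974, 1771 to 3625, 1589 to 3545, 412 to 2082, 16 to 204, 17 to 327, 4 to 162 and 227 to 1305 in the same order, with 0 to 2 and 0 to 7 for the response differences. Arrays give no depth, and signals near the floor limit Fosb, Fosl1 and Jun.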
